A study of Mus musculus with 8 samples.

Results

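The core of the spliceosome was followed here through 43 genes, taken by symbol from the 39017 genes of the RNA-seq gene table because their products recognise the branch point and 3′ splice site, belong to the U2, U5 or U4/U6 particles, or carry out activation, catalysis and disassembly. The libraries came from iGBs, splenic B cells that proliferate with a germinal center-like phenotype on 40LB feeder cells, which are fibroblasts made to express CD40L and BAFF. Prmt5-null cultures were Prmt5F/F Cγ1-cre and control cultures were Cγ1-cre, both on the C57BL6/J strain, both with 1 ng per mL IL-4 and both harvested at day 4 by elutriation, a separation of cells by size and density. Controls therefore carried the Cre as well, and Cγ1-cre excises the floxed Prmt5 gene in activated B cells. Each genotype had 4 independent biological samples, named here as in the labels. Prmt5-null values are given in the order PRMT5-10617, PRMT5-10618, PRMT5-10770 and PRMT5-10771, and control values in the order CTRL-10650 and CTRL-10370, then CTRL-10596 and CTRL-10597. The labels gave no age, and the 2 experiments of the study were not tied to libraries. These are bulk libraries, so a lower share of cells that express a gene and less of its RNA per cell cannot be told apart.

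Splicing removes introns in 2 transesterification steps. SF1 and the U2AF pair mark the branch point, the polypyrimidine tract and the terminal AG of the intron, after which the U2 particle, with its SF3a and SF3b subcomplexes, takes over the branch point. The U4/U6.U5 tri-snRNP then joins, RNA helicases displace U1 and unwind U4 from U6, the Prp19-related proteins stabilise the active centre, and further helicases drive the catalytic steps and the final disassembly. Prmt5, the enzyme deleted here, places symmetric dimethyl marks on arginines, and the Sm proteins shared by the spliceosomal particles are among its best known substrates.

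The libraries held 36731721 to 50366174 reads on genes. Values are reads counted on exons and divided by the size factor of the library, called normalized counts below. Prmt5 itself was at 1291, 1994, 1060 and 1808 normalized counts in the Prmt5-null libraries and at 13087, 11084, 11657 and 11267 in controls (log2 fold change -2.98, SE 0.17, adjusted p = 6.14e-06, limma), so each library followed its label. B cell marker genes summed to 323538 to 380403 normalized counts in Prmt5-null and 360099 to 407440 in control libraries, with 1 of 8 falling and none rising. Germinal center B cell markers summed to 47765 to 63472 against 55731 to 75936, with 1 of 4 rising and none falling. Of the fibroblast markers, 11 of 13 were tested, of which 5 rose and none fell, with summed levels of 8805 to 17250 against 5882 to 10427. Plasma cell markers summed to 31215 to 36327 against 32396 to 44326, with 2 of 4 tested falling. T cell markers summed to 316 to 481 against 674 to 788, almost all from Lck, the 1 gene tested, which fell, while Cd3e was listed at 0 throughout, and myeloid markers summed to 37.0 to 117 against 29.6 to 119, with neither of the 2 tested passing. The part of these other cells in the spliceosome results was not tested. The Prmt5-null library PRMT5-10770 stood at an end of its group most often, being the highest of 4 for 15 members and the lowest for 17.

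All 43 genes were well expressed, with means over the 8 libraries from 1305 (Sf3b4) to 33841 (Sf3b1) normalized counts. To compare genes with each other, counts were divided by exonic length, the bases covered by exons of any annotated transcript of the gene. Introns kept in a noncoding transcript are thus included. For Bcas2 a region of 2837 bases with introns is part of its 4390 bases. The order of genes below therefore also depends on the annotation, which the overlap of libraries does not measure. Per kb of exon, control iGBs contained most Prpf8, the scaffold of the catalytic centre, at 3668 ± 392 normalized counts (SD, n = 4), then U2af2 at 3077 ± 171 and Sf3b1, the SF3b subunit that holds the branch point, at 2766 ± 102. The control libraries of Prpf8 and U2af2 overlapped, as did those of U2af2 and Sf3b1. The lowest levels per kb were those of U2af1 at 468 ± 37.8, of Cwc22, which brings in the exon junction complex, at 365 ± 12.3, and of Prpf3, a U4/U6 protein, at 328 ± 8.08 normalized counts (SD, n = 4 each). The libraries of these last 3 genes did not overlap between neighbours. Most genes between these ends could not be ordered, because the control libraries of neighbouring genes overlapped. Breaks without overlap lay after Sf3b1, Snrnp200, Dhx15 and Eftud2. Snrnp200, the sixth gene, was at 2351 ± 122, and its lowest library was above the highest of Sf3b3 at 1851 ± 92.9 normalized counts per kb (SD, n = 4 each).

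**Figure D1:**
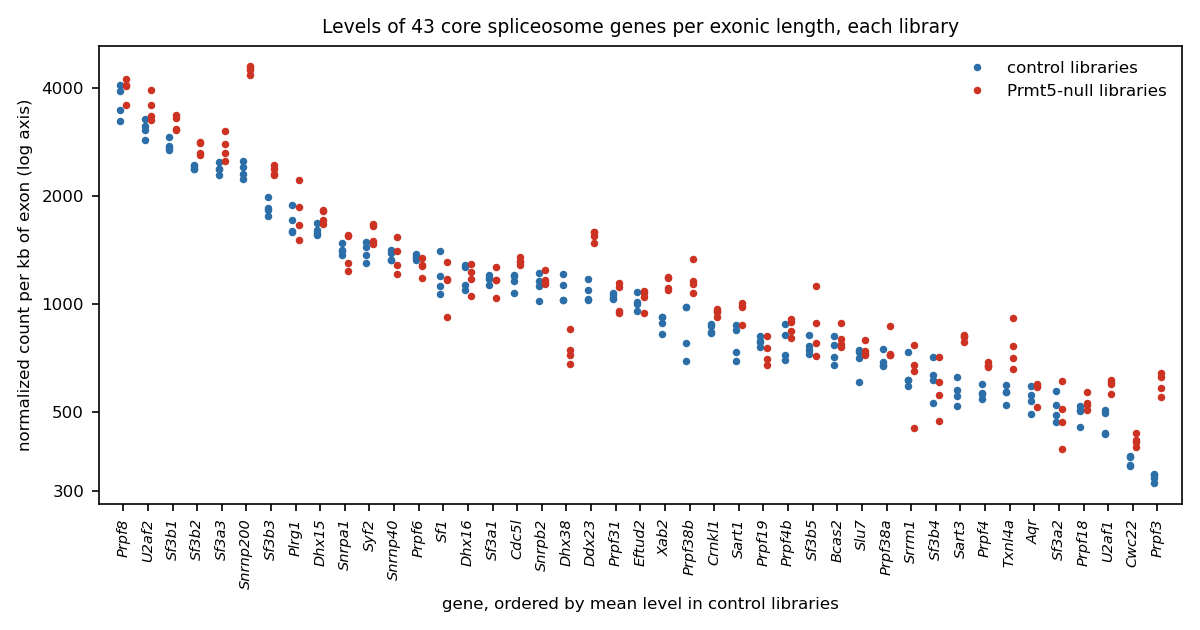
Normalized count per kb of exon (log axis) for the 43 genes in each of 4 control (blue) and 4 Prmt5-null (red) libraries, ordered by the control mean. Snrnp200 (control mean 2351) and Prpf3 (control mean 328, the last gene) show the red points furthest above the blue ones, and Dhx38 is the gene with all red points clearly below the blue ones.

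The comparison between genotypes asks whether loss of Prmt5 was accompanied by altered RNA levels of this machinery. In Prmt5-null iGBs 11 of the 43 genes rose and 1 fell at an adjusted p below 0.05 (limma on log2(normalized count + 1), adjusted over all 16250 genes tested). Over all genes tested, 6.51% rose and 7.33% fell. Among the 6226 genes at least as abundant as the lowest member, a background chosen after the data were seen, 6.52% rose and 8.72% fell. The genes that rose were Snrnp200, Prpf3, Ddx23, Sart3, Prpf38b, Txnl4a, Xab2, U2af1, Sf3b3, Sart1 and Prpf4, and the gene that fell was Dhx38. Rises of at least 1.5-fold were limited to Snrnp200 and Prpf3, and no member fell by as much. Of all genes tested 3.49% rose and 2.99% fell by at least 1.5-fold, and of those at least as abundant as the lowest member 1.35% and 1.78%. The median log2 fold change of the 43 genes was 0.13, against 0.00 over all genes tested, and 31 of 43 were above 0, against 50.4% of all genes. The other 31 genes did not pass the test, with log2 fold changes from -0.10 to 0.20. The Prmt5-null and control libraries did not overlap for 17 genes that were higher and 1 that was lower in Prmt5-null, where 9.67% and 10.2% of all genes tested showed such a gap. The count of rises fell to 7 without CTRL-10650 and to 7 without CTRL-10370.

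**Figure D2:**
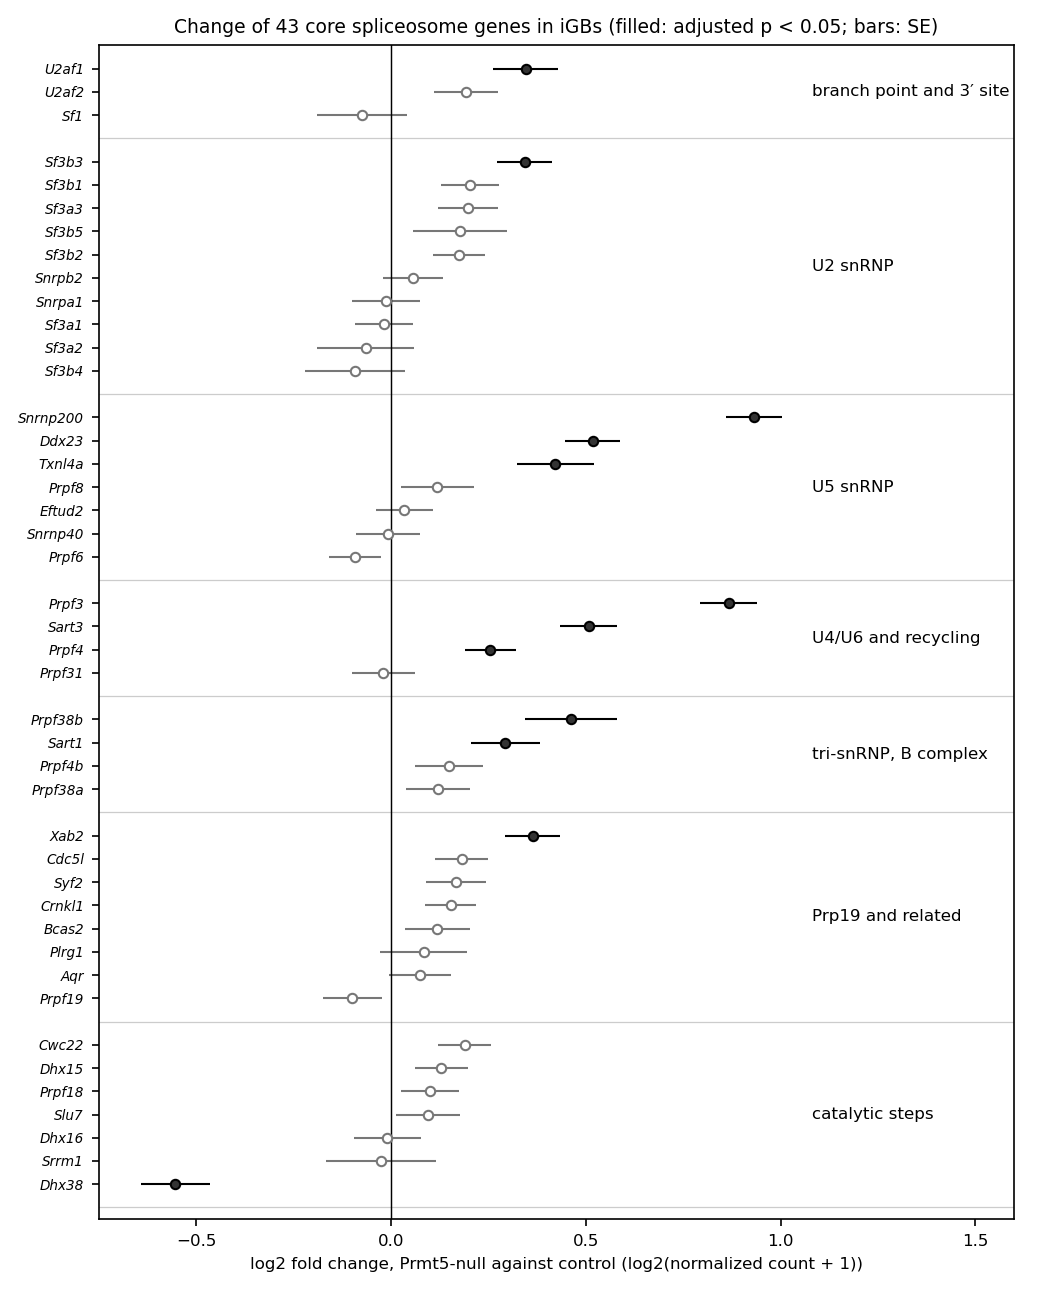
Log2 fold change in Prmt5-null against control iGBs (x axis, with the SE as bars) of the 43 genes, grouped by role. Filled points passed an adjusted p of 0.05, and they run from 0.93 for Snrnp200 to -0.55 for Dhx38, while the open points lie between -0.10 and 0.20.

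Of the 7 U5 genes, 3 rose and none fell. Snrnp200 encodes the helicase that unwinds U4 from U6 and thereby activates the spliceosome, and it lies on chromosome 2. Its level was 35503, 34933, 33898 and 35825 normalized counts in Prmt5-null libraries and 18736, 17344, 17918 and 19519 in controls. The genotypes were far apart, and each group was tight. The log2 fold change was 0.93 (SE 0.07, adjusted p = 2.53e-05), a 1.91-fold rise. Ddx23, the helicase that displaces U1 from the 5′ splice site, had 9863, 9626, 9181 and 9840 normalized counts against 6385, 6424, 7314 and 6796. No Prmt5-null library overlapped a control library, and the log2 fold change was 0.52 (SE 0.07, adjusted p = 0.000684). Txnl4a, a small thioredoxin-like protein of U5, had 3190, 2958, 4105 and 3428 normalized counts against 2565, 2669, 2564 and 2349. The groups did not overlap, although PRMT5-10770 stood above the other Prmt5-null ones (log2 fold change 0.42, SE 0.10, adjusted p = 0.0153). Txnl4a shared 10.1% of its exonic bases with Gm16286 on the same strand, whose log2 fold change was 0.10 (adjusted p = 0.475).

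The 4 remaining U5 genes did not pass the test. Prpf8 was at 30253, 30178, 26651 and 31506 normalized counts against 30356, 24068, 25821 and 29232. Its groups overlapped, with a log2 fold change of 0.12 (SE 0.09, adjusted p = 0.435). Eftud2, the GTPase that binds Prpf8, had a log2 fold change of 0.03, Snrnp40 -0.01, and Prpf6, which bridges U5 and U4/U6, -0.09. Per exonic length, Snrnp200 stood at 1.12, 1.10, 1.21 and 1.09 times Prpf8 in the Prmt5-null libraries and at 0.589, 0.688, 0.662 and 0.637 times in controls. Against Eftud2 the ratio was 4.05 to 4.76 in Prmt5-null and 2.23 to 2.50 in control libraries. The ratio of Ddx23 to Prpf8 was 0.374 to 0.413 against 0.252 to 0.339. These pairs were chosen after the values were seen and are given without a test.

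**Figure D3:**
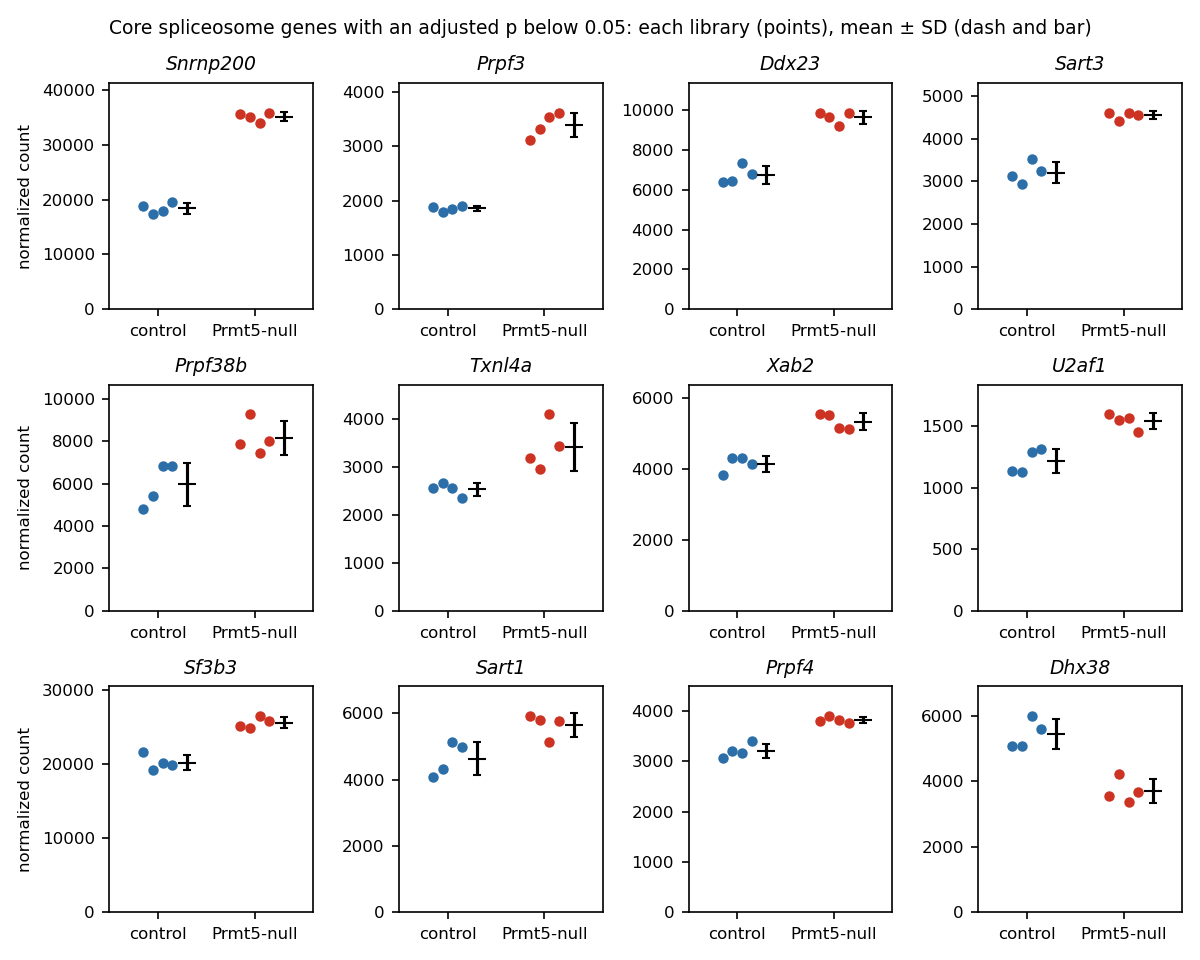
Normalized counts of the 12 genes with an adjusted p below 0.05 in each control (blue) and Prmt5-null (red) library, with the mean and SD (n = 4) beside the points and each y axis starting at 0. Snrnp200 and Prpf3 show the widest gaps between genotypes (1.91- and 1.82-fold), while for Sart1 the lowest Prmt5-null library (5136) almost touches the highest control library (5135).

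Of the 4 U4/U6 genes, 3 rose. Prpf3, which with Prpf4 forms the protein pair of the U4/U6 duplex, was at 3119, 3308, 3528 and 3619 normalized counts in Prmt5-null libraries and at 1883, 1794, 1855 and 1897 in controls. Every Prmt5-null library lay well above every control (log2 fold change 0.87, SE 0.07, adjusted p = 4.35e-05, 1.82-fold). Prpf4 rose less, with a log2 fold change of 0.25 (SE 0.07, adjusted p = 0.0244), from 3209 ± 138 to 3828 ± 59.8 normalized counts (SD, n = 4 each). Sart3, which helps to rejoin U4 and U6 after splicing, was at 4614, 4417, 4611 and 4558 against 3122, 2931, 3528 and 3248 normalized counts. The groups were separate for Sart3 (log2 fold change 0.51, SE 0.07, adjusted p = 0.00105). Prpf31, which binds U4 and links the tri-snRNP, had a log2 fold change of -0.02 (SE 0.08, adjusted p = 0.905). The ratio of Prpf3 to Prpf31 per exonic length was 0.495 to 0.677 in Prmt5-null and 0.305 to 0.324 in control libraries, and that of Prpf3 to Prpf4 was 0.821 to 0.962 against 0.559 to 0.614. For Prpf4 to Prpf31 it was 0.591 to 0.723 against 0.520 to 0.567. These pairs too were chosen after the values were seen, restate the fold changes above and are given without a test. Prpf4 was the weakest of the 3 calls and had an adjusted p of up to 0.0686 when 1 library was left out.

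Of the 4 genes of the tri-snRNP and B complex, 2 rose. Prpf38b, a homologue of the B complex protein Prpf38a, had 7861, 9275, 7452 and 8021 normalized counts in Prmt5-null libraries and 4816, 5414, 6812 and 6809 in controls. The groups did not overlap, but the controls were spread widely (log2 fold change 0.46, SE 0.12, adjusted p = 0.0223). Sart1, a tri-snRNP protein, had 5938, 5811, 5136 and 5769 against 4083, 4339, 5135 and 4976 normalized counts. Its lowest Prmt5-null and highest control library were next to each other (log2 fold change 0.29, SE 0.09, adjusted p = 0.0477). The call of Sart1 was lost in 23 of 36 alternative settings, among them 6 of the 8 that left out 1 library, and that of Prpf38b was lost without PRMT5-10771, CTRL-10650 or CTRL-10370. Prpf38a had a log2 fold change of 0.12 and the kinase Prpf4b 0.15, and neither passed the test.

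Among the 3 genes that recognise the 3′ end of the intron, U2af1 rose. U2af1, the small U2AF subunit that reads the terminal AG, had 1597, 1548, 1569 and 1454 normalized counts in Prmt5-null libraries and 1132, 1128, 1288 and 1311 in controls. The groups were separate (log2 fold change 0.35, SE 0.08, adjusted p = 0.0171). Without CTRL-10650 or CTRL-10370 the call was lost, with an adjusted p of up to 0.0523. U2af2, the large subunit that binds the polypyrimidine tract, was at 14710, 13359, 16231 and 13667 normalized counts against 11756, 13445, 12867 and 12549. The lowest Prmt5-null library was below the highest control, and the gene did not pass the test (log2 fold change 0.19, SE 0.08, adjusted p = 0.140). Sf1, the first protein on the branch point, had a log2 fold change of -0.07.

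Among the 10 genes of the U2 particle, Sf3b3 rose and none fell. Sf3b3, the large propeller-shaped scaffold subunit of SF3b, was at 25125, 24897, 26589 and 25863 normalized counts in Prmt5-null libraries and at 21599, 19170, 20131 and 19944 in controls. All Prmt5-null libraries were above all controls (log2 fold change 0.34, SE 0.07, adjusted p = 0.00787). Exons of Cog4 on the opposite strand and of small nucleolar RNAs covered 3.05% of its exonic bases. Sf3b1, the subunit most often mutated in myeloid malignancies, had 34920, 38039, 34525 and 37445 against 30502, 33115, 31310 and 30875 normalized counts. Its groups did not overlap either, but with a log2 fold change of 0.20 (SE 0.07) the adjusted p was 0.0911, and DESeq2 on the recovered reads gave 0.0195. Sf3a3 and Sf3b2 likewise had no overlap between genotypes, with log2 fold changes of 0.20 and 0.18 that did not pass the test. The other 6 genes ranged from -0.09 for Sf3b4 to 0.18 for Sf3b5, with Snrpb2 at 0.06, Snrpa1 at -0.01, Sf3a1 at -0.02 and Sf3a2 at -0.06.

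In the group of 8 genes around Prp19, Xab2 rose and the ubiquitin ligase Prpf19 itself had a log2 fold change of -0.10 (adjusted p = 0.417). Xab2, the SYF1 homologue that also takes part in transcription-coupled repair, had 5556, 5530, 5166 and 5122 normalized counts in Prmt5-null libraries and 3846, 4316, 4305 and 4145 in controls. The groups were separate (log2 fold change 0.36, SE 0.07, adjusted p = 0.00558). Camsap3 on the opposite strand covered 12.2% of the exonic bases of Xab2 and had means of 91.7 and 46.1 normalized counts in Prmt5-null and control libraries. The other members of the group had log2 fold changes of 0.18 for Cdc5l, 0.17 for Syf2, 0.15 for Crnkl1, 0.12 for Bcas2, 0.08 for Plrg1 and 0.08 for the intron-binding helicase Aqr, none of which passed the test. Bcas2, a core subunit of the Prp19 complex, was at 3324, 3393, 3888 and 3504 normalized counts against 2960, 3570, 3361 and 3109, and its groups overlapped (SE 0.08, adjusted p = 0.374).

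Of the 7 genes of the catalytic steps and disassembly, Dhx38 fell and none rose. Dhx38, the helicase that remodels the spliceosome between the branching and exon ligation steps, had 3567, 4212, 3376 and 3686 normalized counts in Prmt5-null libraries and 5078, 5074, 6012 and 5601 in controls. It was the one member whose Prmt5-null libraries all lay below the controls (log2 fold change -0.55, SE 0.09, adjusted p = 0.00185). The call held in all 36 alternative settings. Cwc22 was at 2968, 2816, 2730 and 2845 against 2422, 2414, 2567 and 2560 normalized counts. Its genotypes did not overlap, but at a log2 fold change of 0.19 (SE 0.07) it did not pass the test (adjusted p = 0.0865), while DESeq2 gave 0.0356. The second-step factors Slu7 and Prpf18 had log2 fold changes of 0.10 each, the splicing coactivator Srrm1 -0.02, Dhx16, which acts just before the branching step, -0.01, and Dhx15, which takes the spent spliceosome apart, 0.13.

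In a second list of 57 other spliceosome proteins, 56 were found and tested, of which 7 rose and 1 fell at an adjusted p below 0.05, where 6.51% of all genes tested rose and 7.33% fell. The total of 8 of 56 was near the 13.8% of all genes called in either direction. By log2 fold change, the rises were Smndc1 at 0.48, Dhx35 at 0.42, Ddx41 at 0.41, Rbm17 at 0.35, Ddx46 at 0.34, Ik at 0.29 and Rbm42 at 0.26, and the fall was Isy1, a protein of the Prp19-related group, at -0.28 (adjusted p = 0.0425). The median log2 fold change of this list was 0.12, and 48 of 56 were above 0, against 50.4% of all genes. No gene of this list passed 1.5-fold. The count of 8 went down to 4 without PRMT5-10771 and to 5 without CTRL-10650, CTRL-10370 or CTRL-10596.

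The deposited splicing tables list only events in which the authors found a difference between these genotypes, so the events are described here without a test. By its methods, the paper selected the most significant event per gene among those with an inclusion difference above 10%. It kept those with an FDR below 0.05 in genes with a mean above 50. An inclusion level is the share, from 0 to 1, of the long form among the 2 forms compared. It is taken from reads divided by the length in which they can fall. Read counts of events are given as deposited, not scaled to the depth of the library. Lists of 4 values per genotype do not name their libraries and are given in the deposited order. An event was listed for 4 of the 43 genes (9.30%), 6 events in all, against 11.4% of the 13300 genes with a mean above 50. The share was 9.35% of the 16250 genes with a mean of at least 10, but none with a mean of at most 50 had an event. A share among genes as abundant as the members was not taken. Xab2 and Bcas2 had a retained intron (RI), which 2.53% of the genes with a mean above 50 had. U2af2 and Prpf38b had an alternative 5′ splice site (A5SS, 1.43% of those genes), and Bcas2 and U2af2 an alternative 3′ splice site (A3SS, 0.962%). No member was among the deposited skipped exon events, which 6.86% of those genes had, or the mutually exclusive exon events (2.63%). The 337 RI, 190 A5SS and 128 A3SS events were in as many genes, 1 event per gene and type. Further events of a member, or smaller differences, would therefore not appear. The sequences below are from GENCODE transcripts of the GRCm38 build, which the splicing tables also use, and show the bases on which each event turns. The first gives the Xab2 intron in capitals between 20 exon bases on each side, the next pair the bases between the 2 competing 5′ splice sites in capitals between the end of the short exon and the start of the next exon, and the last pair the exons that a junction skips, in capitals, with 20 intron bases on the sides where a transcript gave them.
Xab2 intron: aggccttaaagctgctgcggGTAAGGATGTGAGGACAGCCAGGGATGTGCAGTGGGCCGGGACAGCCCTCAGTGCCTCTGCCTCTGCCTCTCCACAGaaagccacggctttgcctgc
U2af2 exon 10 end: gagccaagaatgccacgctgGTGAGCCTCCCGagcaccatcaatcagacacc
Prpf38b exon 2 end: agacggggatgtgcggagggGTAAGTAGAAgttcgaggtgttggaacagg
Bcas2 exon 5: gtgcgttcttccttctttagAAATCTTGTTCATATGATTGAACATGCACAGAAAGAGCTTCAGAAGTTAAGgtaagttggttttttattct
U2af2 exon 3: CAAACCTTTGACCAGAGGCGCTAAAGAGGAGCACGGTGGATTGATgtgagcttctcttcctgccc

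The Xab2 intron is intron 10 of the transcript with 19 exons and has 77 bases, at chr8:3613291-3613367 on the minus strand. It lies between 2 coding exons of 132 bases each. Its inclusion level was 0.265, 0.283, 0.267 and 0.341 in Prmt5-null iGBs and 0.108, 0.161, 0.202 and 0.226 in controls, a mean difference of 0.115. The lowest Prmt5-null value was above the highest control value. Each library gave 140 to 271 reads for the event, with 400 inclusion and 609 skipping reads in all Prmt5-null libraries and 186 and 539 in all controls. The intron began with GTAAGG, 63.6% of its bases were G or C, and 15 of its last 20 bases were C or T. Of the 337 deposited RI events, 7.12% had an intron as short or shorter, and the median length was 246 bases. The level was higher in Prmt5-null iGBs in 293 of these 337 events (86.9%). The unspliced form is annotated here in 1 noncoding transcript of the class retained intron, so reads in it may also count toward the gene level of Xab2, which rose as described above. The authors counted with an Ensembl annotation, and whether such reads entered that level was not checked.

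U2af2 has a pair of 5′ splice sites at the end of exon 10, 12 bases apart (chr7:5075228-5075239, plus strand), so that the exon is 99 or 87 bases long. The long form had inclusion levels of 0.484, 0.495, 0.519 and 0.526 in Prmt5-null iGBs and 0.332, 0.366, 0.340 and 0.350 in controls. The gap between the genotypes was wide beside the spread within them, at a mean difference of 0.159, and 447 to 811 reads in each library lay behind it. The short form ends before GTGAGC, the donor printed in capitals above, and the long form skips that donor for one further on. The 12 bases are a multiple of 3, and protein-coding transcripts are annotated for both forms. The total level of U2af2 did not pass the test, as given above.

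Prpf38b showed the opposite shift between nearby donors. The long form of its exon 2 has 79 bases and the short form 69, and the 10 bases between them lie at chr3:108908326-108908335 on the minus strand. Inclusion of the long form was 0.108, 0.097, 0.101 and 0.074 in Prmt5-null iGBs and 0.202, 0.248, 0.201 and 0.243 in controls, a mean difference of -0.13. The genotypes did not overlap, with 154 to 263 reads in each library. The donor of the short form, whose share was higher in Prmt5-null iGBs, reads GTAAGT. The 10 bases shift the reading frame. The long form is annotated in 1 transcript, of the nonsense-mediated decay class, and the short form in 3, of which 1 is protein-coding, 1 of the nonsense-mediated decay class and 1 of the retained intron class. Reads joined by the short form summed to 876 in Prmt5-null and 571 in control libraries, and those of the long form to 99 and 177. The total level of Prpf38b rose, as given above.

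**Figure D4:**
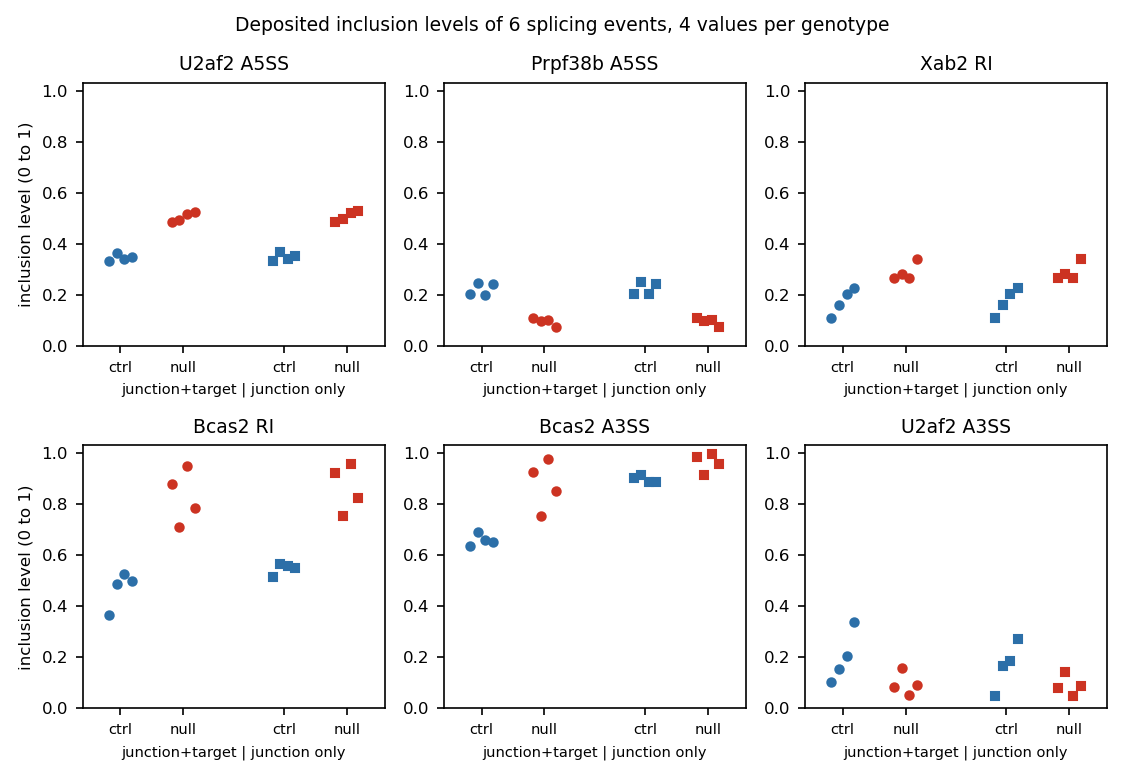
Deposited inclusion levels (0 to 1) of the 6 events in control (ctrl, blue) and Prmt5-null (null, red) iGBs, 4 values per genotype, from junction reads plus reads in the target (circles) and from junction reads alone (squares). The genotypes stand apart in 5 events, with Prpf38b the one in which the Prmt5-null values are lower (0.074 to 0.108), and they overlap in the U2af2 A3SS event.

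Bcas2 had the largest difference, but its 2 events rest on the same few reads. The RI event compares a region of 2837 bases, chr3:103174502-103177338 on the plus strand, with a junction that joins exon 4 to exon 6. This region holds exon 5, a coding exon of 51 bases (chr3:103175619-103175669), so the skipping junction is one that leaves out exon 5, and no annotated transcript contains it. Inclusion was 0.880, 0.709, 0.949 and 0.786 in Prmt5-null iGBs and 0.365, 0.485, 0.525 and 0.499 in controls. The groups did not overlap, and the mean difference was 0.362. The junction that skips exon 5 was read 3, 13, 1 and 8 times in the Prmt5-null libraries and 18, 20, 22 and 16 times in controls, sums of 25 and 76. The A3SS event uses these same reads against the regular junction from exon 4 to exon 5, and its inclusion levels were 0.926, 0.754, 0.977 and 0.852 against 0.634, 0.690, 0.661 and 0.653. From junction reads alone they were 0.984, 0.915, 0.995 and 0.957 against 0.900, 0.914, 0.886 and 0.885, so that the lowest Prmt5-null value lay 0.001 above the highest control. The inclusion reads of the A3SS event, which include those of the regular junction, summed to 2465 in Prmt5-null and 2211 in control libraries, and those of the RI event, which include any read inside the region, to 2426 and 1657. In both events the skipping form is thus an RNA without exon 5, for which fewer reads were found in Prmt5-null iGBs, and not RNA from which 1 intron was removed. Exon 5 is followed by the donor GTAAGT, and 15 of the 20 bases before it are C or T.

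The A3SS event of U2af2 likewise turns on a junction that is in no annotated transcript, from exon 2 to exon 4, which leaves out the coding exon 3 of 45 bases (chr7:5067210-5067254). The alternative to it is a long form of exon 4 that starts 190 bases upstream and is annotated in 1 transcript of the nonsense-mediated decay class. The regular junction from exon 2 to exon 3, annotated in 4 transcripts of which 2 are protein-coding, counts toward neither form. The levels are therefore not shares of all U2af2 RNA. Inclusion of that long form was 0.084, 0.156, 0.051 and 0.091 in Prmt5-null iGBs and 0.104, 0.153, 0.204 and 0.338 in controls. These values overlapped, with a mean difference of -0.104, and from junction reads alone they overlapped as well, with a mean difference of -0.0778. The reads that skip exon 3 numbered 99, 77, 125 and 99 in Prmt5-null and 58, 48, 51 and 24 in control libraries. They summed to 400 against 181 and did not overlap, whereas the reads of the long form summed to 101 and 103. These reads are not scaled to library depth. Without those of the regular junction from exon 2 to exon 3, they give no share of RNA that lacks exon 3. Exon 3 is followed by the donor GTGAGC, the same 6 bases as the donor of the short exon 10. A part of the donor sequence in these events was not tested. The upstream acceptor of the long form is preceded by 14 bases of C or T in 20, and the regular acceptor of exon 4 by 18 in 20. These are shown here with the first 10 exon bases in capitals.
U2af2 upstream acceptor: catccccaccctggccctagCACTGGGGAA
U2af2 exon 4 acceptor: ccccctccccccttccccagTCGTTCTCCC

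**Figure D5:**
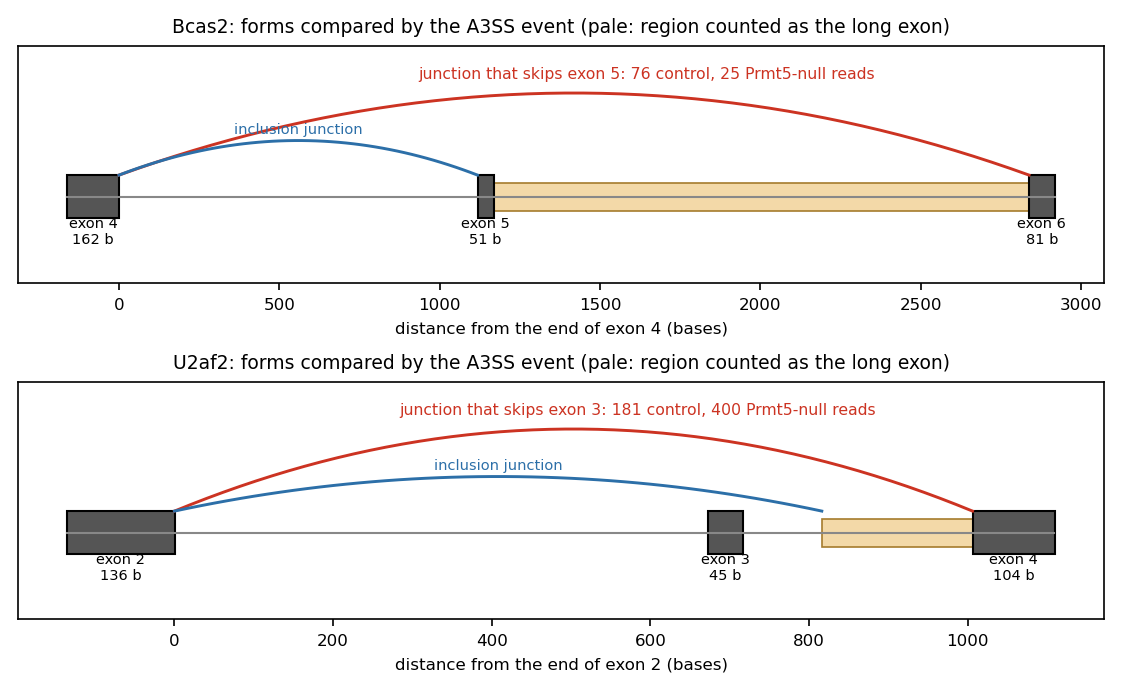
Exons (dark), the region counted as the long exon (pale) and the compared junctions (red, skipping; blue, inclusion) of the A3SS events of Bcas2 and U2af2, to scale in bases from the end of exon 4 or exon 2. The junction that skips exon 5 of Bcas2 had 76 reads in control and 25 in Prmt5-null libraries, and the junction that skips exon 3 of U2af2 had 181 and 400.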

How the data were processed

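rRNA-depleted, stranded RNA-seq libraries of 8 biological samples were analysed. The authors trimmed reads with Trimmomatic 0.32, aligned them with STAR 2.3.0e to GRCm38 and counted them on exons with featureCounts 1.4.4 (versions from the submitters' processing notes). The strand setting of the counting was not given in the sources used here, so genes that overlap others are uncertain. The authors deposited a normalized signal, each gene's count over the size factor that DESeq2 gave the library. Multiplication by 1 factor per library gave whole reads for 100% of values (tolerance 0.001). Of 39017 genes, 12321 were at 0 and limma was run on the 16250 whose mean reached 10, using version 3.58.1 (eBayes with trend, R 4.3.3) on log2(value + 1), with Benjamini-Hochberg adjustment, and 2249 were called at an adjusted p below 0.05. On the recovered reads, edgeR 4.0.16 called 2274 genes and DESeq2 1.42.0 called 3075. Simulated data had 200 changed genes of 16250, an assumed spread between libraries and genes with means down to 10. There limma recovered 9.5% of 1.25-fold changes with 0 false calls, 70% of 1.5-fold changes with 7 and 88.5% of 2-fold changes with 9. These rates need not hold for the members, whose means were at least 1305, or for data with far more called genes. Among the members Sf3b3 was called at 1.27-fold, while Sf3b1 was not at 1.15-fold. With 4 libraries per genotype the smallest exact two-sided permutation p is 0.0286, and no such test is reported.

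For splicing, the authors deposited rMATS events with inclusion levels as a fraction, read counts, p-values and FDR values. The last 2 columns were not used. The deposited lists 1 and 2 were read as control and Prmt5-null from the description of the study. Levels recomputed from the deposited counts and form lengths differed by at most 0.00048. Exonic lengths, exons and sequences were taken from GENCODE M21 (GRCm38) with Python 3.11.15 and pandas 2.3.3, and no genome sequence was used, so donors past the long exon ends were not read.

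The members and lists were chosen with earlier results of these data known. Library values were given for the 10 largest rises and for falls among called members, for members with a splicing event, and for the 3 highest and 3 lowest levels per exonic length. Of the other list, the rule names the 5 largest changes in each direction. Ik and Rbm42, the remaining called genes, were chosen after their values were seen. Alternatives changed the pseudocount, filter, normalization, trend, tool and threshold, left out libraries, or fitted the experiment as a block in 18 placements.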

Additional observations from a re-analysis of the deposited data

Results flagged for a closer look

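Each member and Prmt5 was checked in each genotype for a library whose distance to its nearest neighbour took up more of the range of the 4 libraries than Dixon's test allows. Among 88 such groups 3 had one, and chance alone gives about 1 in 20. Prpf38a was at 4604 normalized counts in PRMT5-10770, with the next library at 3827. Aqr was at 6080 in the same library, with the next at 6916. Srrm1 was at 5350 in CTRL-10597, with the next at 4485. None of these 3 genes passed the test between genotypes.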

How the results depend on the processing

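Among the 12 called members, 7 (Snrnp200, Prpf3, Ddx23, Sart3, Xab2, Sf3b3 and Dhx38) stayed past the threshold in all 36 alternative settings. Txnl4a was lost only at an adjusted p below 0.01, U2af1 in 3 settings, Prpf38b in 5, Prpf4 in 7 and Sart1 in 23, and no fold change of these genes turned its sign. At an adjusted p below 0.01 there were 7 called members, 6 of them higher, and 2 of the other spliceosome proteins. Leaving out 1 library gave 8 to 12 called members, 7 to 11 of them higher (7 without CTRL-10650 or CTRL-10370), 4 to 9 of the other list, and a median log2 fold change of the members from 0.12 to 0.15, the highest without CTRL-10597. Without a trend the other list had 5 called genes. Leaving out 1 library gave 2 or 3 members changed by 1.5-fold. DESeq2 called 16 members and edgeR 12. A difference in inclusion of at least 0.25 left 1 member gene with an event, Bcas2. The experiment, which no label ties to a library, gave 11 or 12 called members as a block in 18 placements. No paired analysis was possible because the genotypes share no replicate number. Depth limits the splicing events, some of whose forms rest on few reads per library, with 1 to 22 for the skipping junction of Bcas2, 17 to 36 for the long form in the U2af2 A3SS event and 21 to 50 for the long form of Prpf38b. The causes of these changes were not tested.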
